A study of Mus musculus with 8 samples.

Results

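The proteasome genes and Vcp were taken from single-cell RNA profiles of neurons of the mouse stellate ganglion, the sympathetic ganglion that sends axons to the heart. Every gene whose symbol starts with Psma, Psmb, Psmc, Psmd, Psme, Psmf or Psmg followed by a number was a member, and Vcp was added. This gave 51 of the 19224 genes measured. They were 8 alpha and 7 constitutive beta subunits of the 20S core, 4 immunoproteasome or thymoproteasome beta subunits, 6 ATPases and 3 further subunits of the 19S base, 8 lid subunits, 6 activators or inhibitors, 7 assembly chaperones, Vcp, and Psmc3ip, which is named alike but is no proteasome subunit. Of these, 42 passed the filter on low values and entered the tests. The 9 that did not were Psma8, Psmb9, Psmb11, Psme2b, Psmf1, Psmd10, Psmg1, Psmg2 and Psmc3ip. Psmd5 and Psmd9 passed only with the help of both the NA2 and the NA1b profiles, and Psmg3 only with those of NA2, NA1a and NA1c.

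The study compared 8 transcriptional subtypes of 1303 stellate ganglion neurons from C57BL6/J mice of 8 to 10 weeks, labelled retrogradely with adeno-associated virus that expressed GFP or Td-tomato. The mice were male in the methods, and the labels do not give which virus each animal received. The groups were 5 noradrenergic subtypes, NA1a (316 neurons), NA1b (311), NA1c (239), NA2 (175) and NA3 (99), the cholinergic labels Ach1 (64) and Ach2 (62), and Glut (37). No group was genetically altered or treated differently from another, so every comparison was between subtypes within the same animals. The mouse was the replicate: 5 mouse names matched a single sample each (mice 1 to 5, with 1002 neurons), and 301 neurons of 3 further mouse names entered only values pooled over all neurons. The paper's supplement lists the 5 matched mice under batch 2 and its other 3 mice under batch 1. Values pooled over all neurons therefore mix the batches. The protocol describes 16 left and right ganglia combined for digestion, and whether a library held 1 animal was not stated, so p-values measured the spread between these libraries. The subtypes are clusters of the same neurons, and a test between them measured how steady a difference was over mice, not whether the grouping is right.

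The proteasome is the main protease of the cytosol and nucleus. Its 20S core is a barrel of stacked rings, with outer alpha rings that form the gate and inner beta rings that hold the active sites of Psmb5, Psmb6 and Psmb7. The 19S particle sits on the core, recognises ubiquitin chains, removes them, and unfolds the substrate with its ring of ATPases. In the immunoproteasome Psmb8, Psmb9 and Psmb10, which interferon gamma induces in many cells, take the place of the 3 constitutive catalytic subunits. Vcp encodes p97, an ATPase that pulls ubiquitinated proteins out of membranes and complexes and delivers them to the proteasome. Neurons do not divide and carry long axons, and depend on this pathway for protein quality control.

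All levels are unique molecular identifiers (UMIs) of a gene per 10000 UMIs of the neuron, averaged over the neurons of a subtype in a mouse and not divided by transcript length. Total depth was 916296 to 1196621 UMIs per matched mouse. The median neuron held between 2206.5 UMIs (Ach1) and 6773 UMIs (NA3), with 2461 in NA2, 2685 in NA1c, 3252 in NA1b and 6524.5 in NA1a. The 6 neuron markers Snap25, Syt1, Pcsk1n, Prph, Dbh and Th were detected in every subtype, with a pooled sum of 85.4 to 120 except in NA3, where it was 48.1. In NA3 the satellite glia marker sum was 352, 190 and 236 in mice 2, 4 and 5, against 3.17 to 24.3 in the profiles of NA1a, NA1b, NA1c and NA2. Among the matched mice, 21 cell barcodes occurred in 2 to 5 mice each (73 neurons), 20 of them with the same subtype in every mouse. They made up 55 of the 150 matched NA2 neurons, 15 of the 46 Ach2 neurons and 3 of the 17 Glut neurons. No other subtype held any. In NA2 these barcodes made up 17 of 27 neurons in mouse 1, 8 of 14 in mouse 2, 14 of 49 in mouse 3, 14 of 43 in mouse 4 and 2 of 17 in mouse 5. The p-values treat the mice as independent, and whether NA2 profiles that share barcodes are so was not tested. The main sums, ratios and counts of calls of NA2, and the core values of Ach2, are therefore also given without the shared barcodes.

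The windows of 250 bases before the RefSeq transcript start are shown for 5 members on which the comparisons below turn (RefSeq, GRCm38.p6). These are the catalytic subunits Psmb5 (chr14:54617996-54618245, minus strand) and Psmb6 (chr11:70525107-70525356, plus strand), Vcp (chr4:43000508-43000757, minus strand), the nuclear activator Psme4 (chr11:30771525-30771774, plus strand) and the immunoproteasome subunit Psmb8 (chr17:34197945-34198194, plus strand, inside the span of the annotated gene). Capitals mark an antioxidant response element core (TGACNNNGC), the kind of site that Nfe2l1 and Nfe2l2 bind, or CCAAT, the site of the NF-Y factor, on either strand.
Psmb5: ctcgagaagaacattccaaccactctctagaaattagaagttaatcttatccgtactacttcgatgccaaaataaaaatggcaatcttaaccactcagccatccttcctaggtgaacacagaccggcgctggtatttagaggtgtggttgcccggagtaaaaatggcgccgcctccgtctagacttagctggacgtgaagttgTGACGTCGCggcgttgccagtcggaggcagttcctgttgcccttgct
Psmb6: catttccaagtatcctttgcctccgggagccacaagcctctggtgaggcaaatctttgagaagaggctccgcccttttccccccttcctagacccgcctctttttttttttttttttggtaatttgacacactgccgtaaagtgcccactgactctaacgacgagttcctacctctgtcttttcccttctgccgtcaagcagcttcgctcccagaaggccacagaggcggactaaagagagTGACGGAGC
Vcp: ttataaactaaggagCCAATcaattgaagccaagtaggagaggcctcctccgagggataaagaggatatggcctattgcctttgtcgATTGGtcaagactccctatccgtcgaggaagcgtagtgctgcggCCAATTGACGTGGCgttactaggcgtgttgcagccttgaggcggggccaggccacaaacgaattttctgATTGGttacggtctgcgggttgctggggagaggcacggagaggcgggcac
Psme4: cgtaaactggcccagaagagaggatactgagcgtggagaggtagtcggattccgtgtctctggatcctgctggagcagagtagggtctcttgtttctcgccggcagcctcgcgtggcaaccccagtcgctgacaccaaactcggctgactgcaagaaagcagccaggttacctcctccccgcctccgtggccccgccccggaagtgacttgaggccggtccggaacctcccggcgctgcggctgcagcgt
Psmb8: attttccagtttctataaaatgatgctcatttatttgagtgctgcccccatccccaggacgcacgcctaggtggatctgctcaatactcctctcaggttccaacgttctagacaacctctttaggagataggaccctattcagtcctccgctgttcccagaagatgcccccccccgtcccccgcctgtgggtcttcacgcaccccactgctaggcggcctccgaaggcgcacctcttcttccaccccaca
The antioxidant response element core lay 47 bases before the start of Psmb5, 9 bases before that of Psmb6 and 114 bases before that of Vcp. In the GENCODE annotation (GRCm38) the gene Vcp spans chr4:42979963-43000507, Psmb5 chr14:54614119-54618022, Psmb6 chr11:70525367-70527858, Psme4 chr11:30771726-30880361 and Psmb8 chr17:34197721-34201454. In Vcp the core directly followed a CCAAT box, 1 of 4 in that window. The windows of Psme4 and Psmb8 held neither motif, nor GAAANNGAAA, a core of interferon response elements. Of the 43 members with a window, 6 held the antioxidant core (14.0%: Psmb5, Psmb6, Psmc6, Psmd12, Psmd9 and Vcp), against 11.5% of the windows of 27025 genes. CCAAT was found in 16 of the 43 (37.2%), against 37.5% of all genes, and GAAANNGAAA in 3 (6.98%: Psmb3, Psmd4 and Psmd9), against 3.46%. These are letter matches in 1 window and not bound sites.

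Over all neurons, the members summed to 62.8 UMIs per 10000. The 7 constitutive beta subunits made up 13.4 of these and the 8 alpha subunits 12.7, while the 19S lid gave 11.0, the ATPases 9.94 and the further base subunits 4.75. Vcp was the highest member, at 4.23 UMIs per 10000, with a UMI in 935 of 1303 neurons (71.8%). Within the core, Psma3 (3.57) was the highest alpha subunit, and among the beta subunits Psmb6 (2.35) was the highest and Psmb7 (1.37) the lowest. In the 19S particle the levels ran from 3.18 for the ATPase Psmc5 and 2.70 for the lid subunit Psmd7 down to 1.06 for the ATPase Psmc4, 1.22 for the base scaffold Psmd1 and 0.734 for Psmd14, the deubiquitinase of the lid. The activators and the inhibitor summed to 3.19, with Psme4 (0.899) the highest and Psme2b (0.0213, a near copy of Psme2 whose reads cannot be told apart with certainty) the lowest. The chaperones summed to 2.04, from 0.415 for Psmg4 to 0.149 for Psmg1, and the 4 immunoproteasome or thymoproteasome subunits to 1.64, led by Psmb8 (0.781).

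Summed by class, the core set NA2 apart from the other noradrenergic subtypes and the 19S particle did so less. The 14 constitutive core subunits detected summed to 23.1, 21.8, 22.5, 21.3 and 16.3 UMIs per 10000 in NA1a of mice 1 to 5 and to 61.0, 56.8, 54.9, 50.9 and 40.9 in NA2. Every NA2 profile lay above every NA1a profile, and also above every profile of NA1b (18.2 ± 1.95, SD, n = 5), NA1c (18.7 ± 2.20, n = 5) and NA3 (24.6 ± 4.88, n = 3). The 17 subunits of the 19S particle summed to 34.6 ± 3.80 in NA2, against 24.7 ± 1.88, 22.5 ± 0.975 and 24.1 ± 1.96 in NA1a, NA1b and NA1c and 21.9 ± 2.03 in NA3. The ratio of core to 19S UMIs was 1.53 ± 0.204 in NA2 (1.26 to 1.75) and 0.858 ± 0.153, 0.812 ± 0.0832 and 0.777 ± 0.0507 in NA1a, NA1b and NA1c. It was 1.11 ± 0.121 in NA3.

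**Figure D1:**
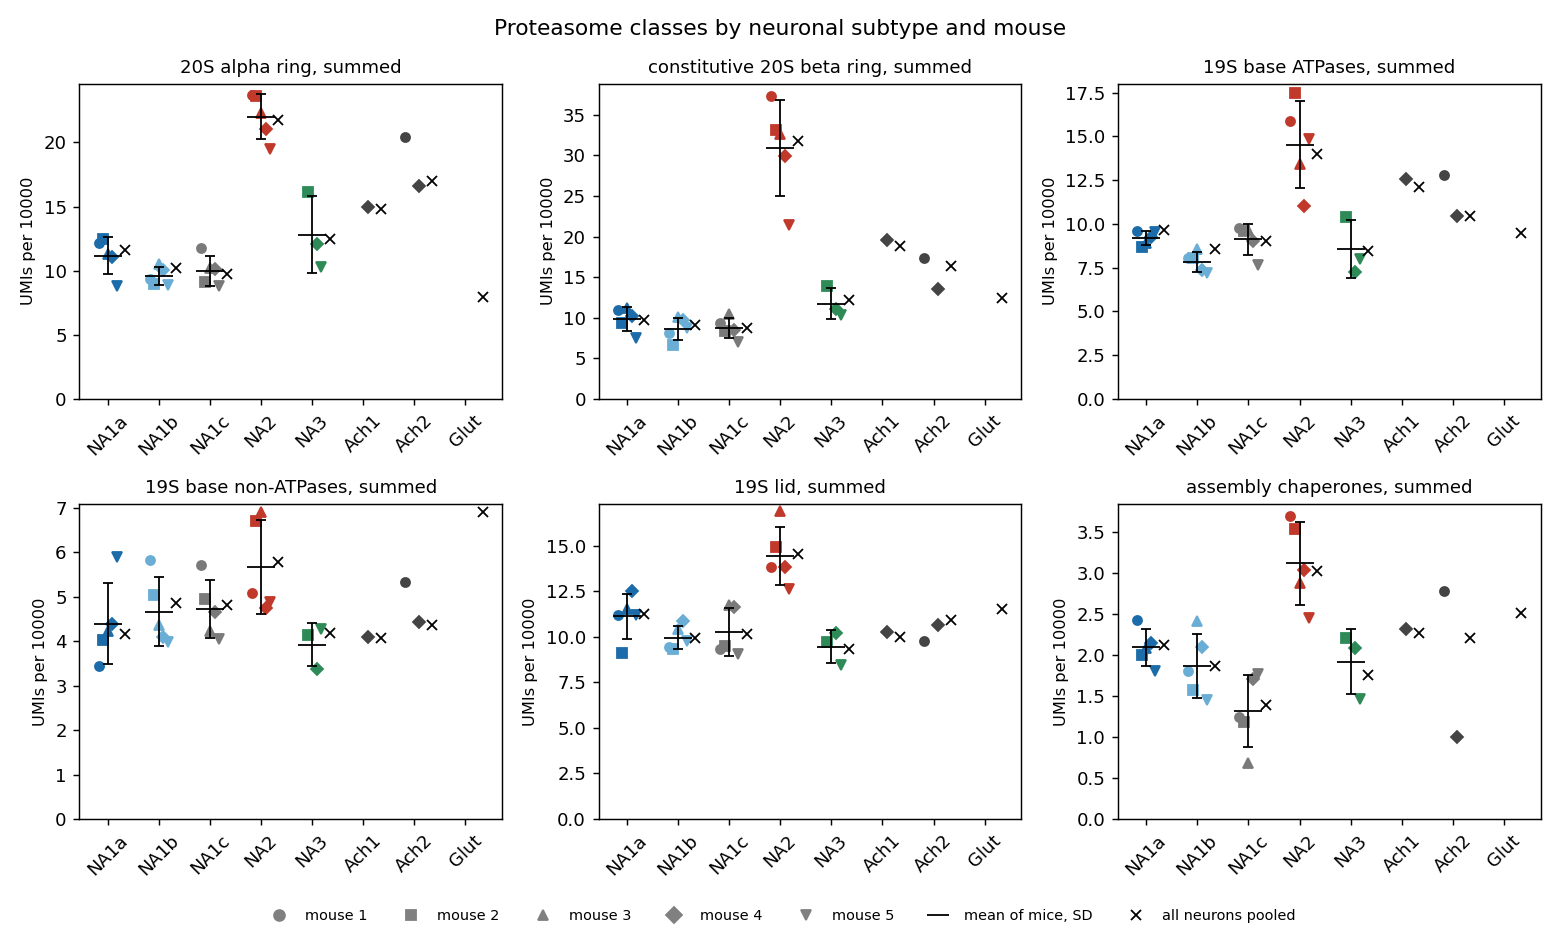
Summed UMIs per 10000 of 6 classes of proteasome genes (y axes, each with its own range) in the 8 subtypes (x axes). Coloured markers are mice, black bars the mean ± SD where at least 3 mice had 10 neurons, and crosses all neurons pooled. The alpha sum in NA2 is 19.5 to 23.7 and the beta sum 21.4 to 37.3, above all NA1a, NA1b, NA1c and NA3 profiles, while the sum of the further base subunits in NA2 (4.76 to 6.92) overlaps theirs.

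Vcp was the member that set NA1a apart from NA1b and NA1c. Its levels in NA1a were 1.66, 1.95, 1.49, 1.79 and 2.13 UMIs per 10000 in mice 1 to 5 (1.80 ± 0.250, SD). They were 5.32, 8.35, 2.00, 3.14 and 2.54 in NA1b (4.27 ± 2.61) and 7.03, 6.80, 4.22, 4.93 and 4.00 in NA1c (5.40 ± 1.43). NA1a lay below NA1b in each mouse, although the lowest NA1b profile (mouse 3) was inside the range of NA1a, and NA1a and NA1c did not overlap. On the log2(UMIs per 10000 + 0.1) scale Vcp was lower in NA1a by -1.02 against NA1b (SE 0.244, adjusted p = 0.00847, limma with Benjamini-Hochberg adjustment over 6185 genes) and by -1.50 against NA1c (SE 0.244, adjusted p = 0.000243). The first call was lost without mouse 1 (-0.87) and without mouse 2 (-0.76), and the second held without any 1 mouse. NA1b and NA1c differed by -0.48 (95% interval -0.97 to 0.01, adjusted p = 0.541).

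In NA2 Vcp was 5.09, 3.83, 7.05, 4.70 and 5.89 (5.31 ± 1.22), and in NA3 it was 3.31, 3.87 and 2.70 in mice 2, 4 and 5 (3.29 ± 0.587). Both ranges lay above that of NA1a. The log2 difference from NA1a was +1.49 for NA2 (SE 0.244, adjusted p = 3.83e-06) and +0.81 for NA3 (SE 0.290, adjusted p = 0.0428, lost without mouse 1, mouse 4 or mouse 5). NA2 did not pass the test against NA1b (+0.47, interval -0.02 to 0.96) or NA1c (-0.01, interval -0.50 to 0.48). The order of the means was thus NA1c, NA2, NA1b, NA3 and NA1a, and every pair called included NA1a (NA3 was tested against NA1a and NA1b alone). Pooled over all neurons, Vcp was 5.50 in Glut, 5.32 in Ach1 and 4.00 in Ach2. In the 3 mouse names that matched no sample, the pooled Vcp level of NA1a was 2.11, that of NA1b 4.37, NA1c 4.01, NA2 4.06 and NA3 2.10, so NA3 there was level with NA1a.

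**Figure D2:**
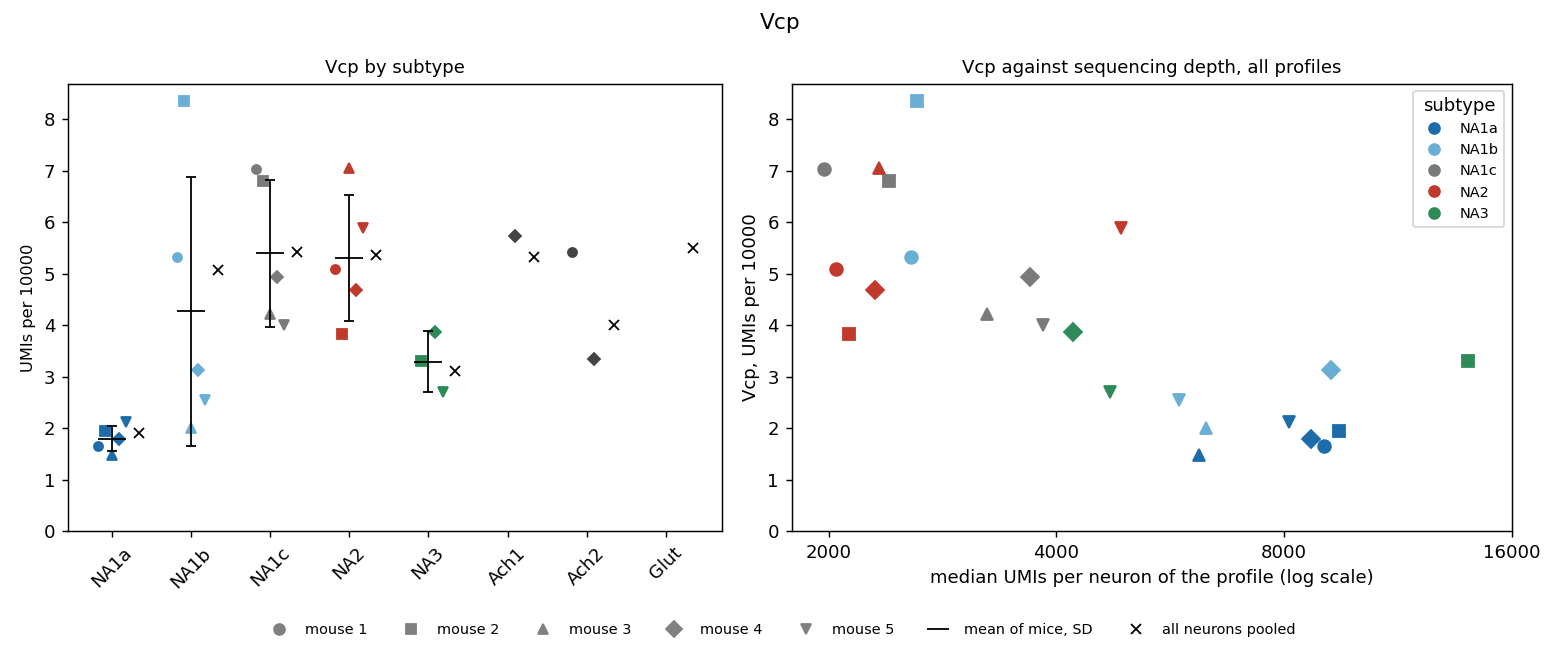
Left, Vcp in UMIs per 10000 (y axis) by subtype (x axis), with mice as coloured markers, black bars for the mean ± SD of at least 3 mice and crosses for all neurons pooled. Right, the same levels against the median UMIs of the neurons of each of the 23 profiles (log x axis): the NA1 profiles with the highest Vcp, 8.35, 7.03 and 6.80, have medians of 2615.5, 1969 and 2400 UMIs.

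The level of Vcp moved with the depth of the neurons. Over the 15 profiles of NA1a, NA1b and NA1c, Pearson's r between Vcp and log2 median UMIs was -0.89 and Spearman's rho -0.82, and over all 23 profiles both were -0.75. These profiles come from 5 mice and are not independent. The NA1b profiles of mice 1 and 2, where Vcp was highest, had medians of 2569 and 2615.5 UMIs, and those of mice 3 to 5 had 5807 to 9223. Within NA1b, Vcp was 7.53 in neurons under 2000 UMIs, 6.36 from 2000 to under 4000, 2.85 from 4000 to under 8000 and 2.37 from 8000. In NA2 the same 4 bins held 5.86, 5.01, 5.83 and 5.07, with no such order. With neurons of at least 4000 UMIs alone, NA1a against NA1b was -0.59 (adjusted p = 0.0956) and against NA1c -1.17 (adjusted p = 0.0503), neither called. Thinned to 2000 UMIs, both were called (-1.42, adjusted p = 0.00598, and -1.93, adjusted p = 0.00036), and a Vcp UMI was in 20.9% of NA1a, 42.5% of NA1b and 58.7% of NA1c neurons. From 2000 to under 4000 UMIs, the bin these subtypes shared at low depth, Vcp was 2.49 in NA1a, 6.36 in NA1b and 5.14 in NA1c. The depth bins pool all neurons, also those of unmatched mouse names, and are not split by mouse. Subtype and depth cannot be told apart from animal in them. Among neurons of at least 4000 UMIs, Vcp was higher in NA2 than in NA1a (+2.00, adjusted p = 2.14e-06) and also than in NA1b (+1.41, adjusted p = 0.000182). Over all mouse names, NA2 held 23 neurons from 4000 to under 8000 UMIs and 25 from 8000. With at least 10 neurons per profile, not all 5 mice could give an NA2 profile there. The satellite glia sum moved with Vcp in NA1b too, at 21.4 and 13.9 in mice 1 and 2 and 3.17 to 7.75 in the others, and the part of depth or of glial RNA in the difference was not tested.

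No other member was called between NA1a, NA1b and NA1c on the log2 scale of mean UMIs per 10000. On the mean of natural log values, however, 4 members were called against NA1b (Psmb1, Psmb8, Psmc6 and Psmd12, all higher in NA1a, and not Vcp) and 9 against NA1c (Vcp lower, and Psma1, Psma2, Psma5, Psmb1, Psmb6, Psmb8, Psmd12 and Psmg4 higher). Of the 42 tested, 0 were higher and 1 lower in NA1a than in NA1b, where 2.67% of all genes tested were higher and 1.47% lower. Against NA1c the counts were again 0 and 1, with 3.93% of all genes higher and 1.75% lower. Between NA1b and NA1c limma called 0 members in either direction, against 1.54% of all genes, and 1 member, the ATPase Psmc6, had an unadjusted p under 0.05 (-0.53, adjusted p = 0.443). After Vcp, the smallest p in NA1a against NA1b belonged to the beta subunit Psmb1 (+0.78, adjusted p = 0.0578, called at 0.0459 when profiles were centred on the median gene) and to Psmb8 (+0.94, adjusted p = 0.0872, higher in NA1a in 5 of 5 mice). Against NA1c they belonged to Psmb8 (+0.86, adjusted p = 0.11) and the lid subunit Psmd12 (+0.63, adjusted p = 0.115), and between NA1b and NA1c the ATPase Psmc3 followed Psmc6 and Vcp (-0.43, adjusted p = 0.675). The median difference over the members was +0.17 and +0.16 for NA1a against NA1b and NA1c, and 0.00 and -0.01 over all genes tested.

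NA2 neurons carried more RNA per UMI of 22, 27 and 25 of the 42 members tested than NA1a, NA1b and NA1c. Of 42 members, 22 were higher and 1 lower than in NA1a, where 16.6% of all genes tested were higher and 32% lower. Against NA1b, 27 were higher and 2 lower (all genes 21.5% and 34.8%), and against NA1c 25 and 2 (all genes 23.4% and 36.5%). Over NA1a, NA1b, NA1c and NA2 together, 28 of 42 differed in limma's F test, where 59.9% of all genes did, led by Psmb1 (adjusted p = 6.38e-11), Psmb5 (2.53e-09) and Psmb6 (2.96e-09). The median log2 difference of the members from NA1a, NA1b and NA1c was +0.75, +0.85 and +0.92, and that of all genes tested -0.23, -0.28 and -0.29. Centring each profile on its median gene, which brings that shift to +0.03 against NA1a, gave 25, 31 and 33 higher and 1 lower in each. Thinning every neuron to 2000 UMIs gave 16, 14 and 20 higher and 1 lower in each. The median over the members was then +0.92, +0.84 and +1.12, and that over all genes tested -0.24, -0.31 and -0.30.

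**Figure D3:**
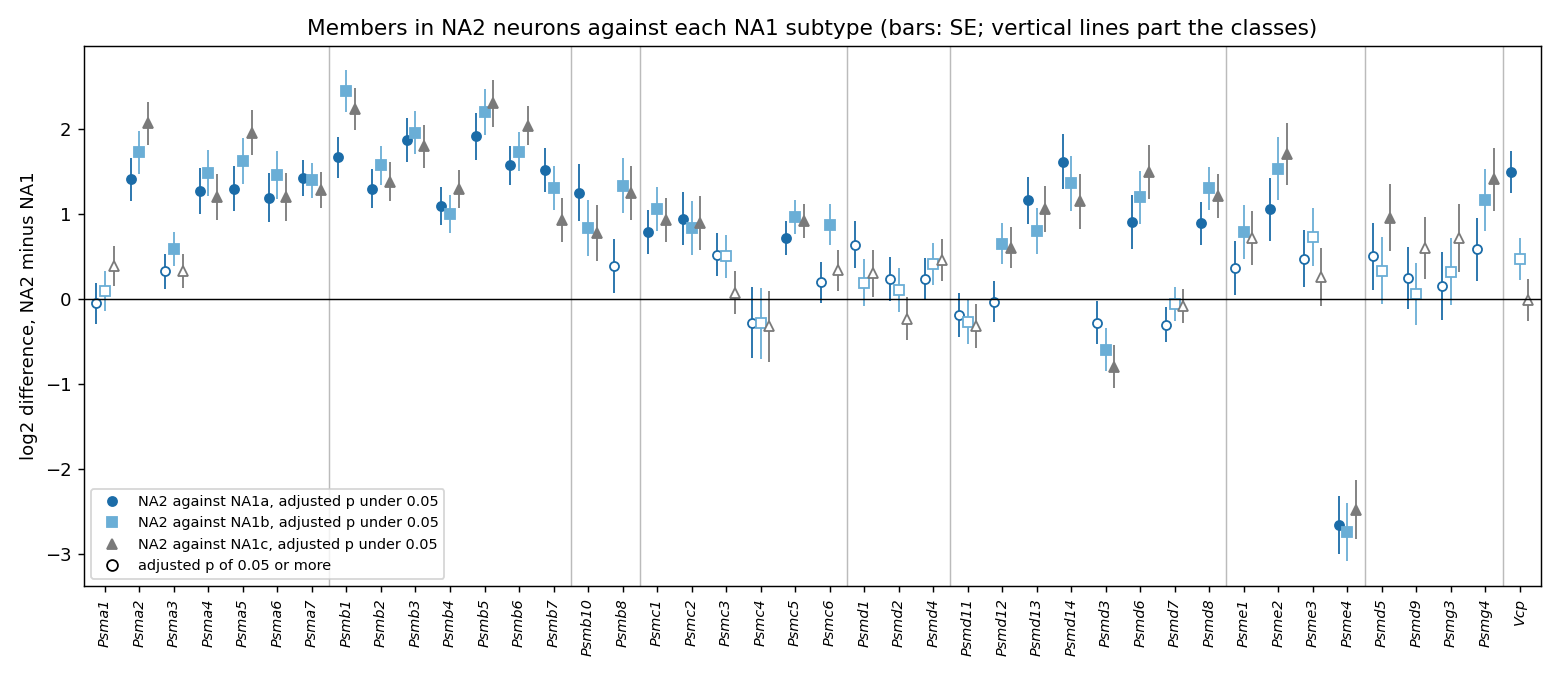
Log2 difference of NA2 from NA1a, NA1b and NA1c (y axis, 3 markers per gene) for the 42 tested members (x axis, with vertical lines between classes). Bars are standard errors and filled markers have an adjusted p under 0.05 (limma). All 7 constitutive beta subunits are filled and above 0 in all 3 comparisons, and Psme4 is filled at -2.65, -2.74 and -2.48.

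All 7 constitutive beta subunits were higher in NA2 than in NA1a, NA1b and NA1c, and this was the only class called throughout. Psmb1, a structural beta subunit, was 7.61, 8.19, 5.76, 5.64 and 3.65 UMIs per 10000 in NA2 of mice 1 to 5, and 1.83 ± 0.304 in NA1a, 1.05 ± 0.339 in NA1b and 1.21 ± 0.299 in NA1c. Its lowest NA2 profile, mouse 5, was above the highest NA1 profile (2.22). The log2 differences were +1.66 (SE 0.242, adjusted p = 4.72e-07), +2.44 (7.77e-11) and +2.23 (5.23e-10). Psmb5, which carries the chymotrypsin-like site, was 6.09, 5.36, 6.99, 6.86 and 4.04 in NA2, against 1.50 ± 0.375, 1.37 ± 0.790 and 1.25 ± 0.775. NA2 again did not overlap the others, with differences of +1.91 (SE 0.274, adjusted p = 3.47e-07), +2.19 (1.43e-08) and +2.29 (4.39e-09). Psmb6, which carries the caspase-like site, was 5.87, 7.33, 6.21, 4.99 and 4.16 in NA2, against 1.87 ± 0.496, 1.68 ± 0.503 and 1.34 ± 0.425, differences of +1.57, +1.73 and +2.03 with no overlap.

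Psmb7, the trypsin-like subunit, rose least evenly. Its NA2 levels were 4.89, 1.46, 2.58, 2.27 and 2.06, so that mouse 1 stood apart and mouse 2 lay within the range of NA1c (0.629 to 1.76). The differences were +1.51, +1.30 and +0.93, and the one against NA1c was lost in neurons above and in neurons below 4000 UMIs. The structural subunit Psmb3 was 3.81 ± 1.15 in NA2 and 0.944, 0.883 and 1.04 on average in NA1a, NA1b and NA1c, a difference of +1.86, +1.95 and +1.79. Psmb2 (+1.29, +1.57 and +1.37) and Psmb4 (+1.09, +1.00 and +1.29) were called in every comparison too.

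The alpha ring rose less than the beta ring in each of the 5 mice. Its sum in NA2 was 1.98 ± 0.137 times that of NA1a within a mouse (n = 5), while the beta sum was 3.13 ± 0.325 times. Psma2 (+1.40, +1.72 and +2.06), Psma4 (+1.26, +1.47 and +1.20), Psma5 (+1.29, +1.62 and +1.95), Psma6 (+1.19, +1.45 and +1.19) and Psma7 (+1.42, +1.39 and +1.28) were called against all 3 NA1 subtypes. Psma3, the highest alpha subunit, was called against NA1b alone (+0.58, lost without mouse 5), and its NA2 levels of 3.19 to 5.24 overlapped those of NA1a (2.72 to 4.42). Psma1 was not called (-0.05, +0.09 and +0.38). Psma2, as 1 of the 5 called, was 4.15, 4.40, 2.88, 3.08 and 2.83 in NA2, against 1.28 ± 0.427, 0.974 ± 0.143 and 0.751 ± 0.144, without overlap.

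The 19S particle was split by subunit. Against NA1a, NA1b and NA1c, 3, 4 and 3 of the 6 ATPases, 0 of the 3 further base subunits, and 4, 5 and 5 of the 8 lid subunits were higher. Of the ATPases, Psmc5 (+0.72, +0.97 and +0.92), Psmc1 (+0.78, +1.06 and +0.93) and Psmc2 (+0.94, +0.83 and +0.89) were called throughout and Psmc6 against NA1b (+0.87). The Psmc2 calls were kept in 7 of 15, 7 of 16 and 9 of 16 alternatives. All 3 were lost when thinned and without a filter, and against NA1c the difference turned to -0.14 in neurons of at least 4000 UMIs. Psmc3 (+0.52, +0.50 and +0.07) and Psmc4 (-0.28, -0.29 and -0.32) did not pass. The ubiquitin receptors of the base did not pass either: Psmd2 was +0.23, +0.10 and -0.23, with intervals within -0.75 to 0.75, and Psmd4 was +0.24, +0.41 and +0.46, with intervals up to 0.95. In the lid, Psmd14, which cuts the ubiquitin chain from the substrate, was 1.70, 2.33, 1.33, 1.18 and 1.32 in NA2, above all NA1 profiles (0.244 to 0.947), and differed by +1.61, +1.36 and +1.14. All 3 of its calls were lost when thinned to 2000 UMIs, and that against NA1c also in neurons of at least 4000 UMIs. The lid subunits Psmd6 (+0.90, +1.19 and +1.49), Psmd8 (+0.89, +1.30 and +1.21) and Psmd13 (+1.16, +0.79 and +1.06) were called throughout, and Psmd12 against NA1b (+0.65) and NA1c (+0.60). Thinned to 2000 UMIs, all the ATPase and lid calls against NA1a were lost. Against NA1b those of Psmc5 and Psmd8 alone were kept, and against NA1c those of Psmc1, Psmc5, Psmd6, Psmd8 and Psmd13. With neurons of at least 4000 UMIs, Psmd6 alone of the ATPases and lid subunits kept its call against NA1c. Psmd11 (-0.19, -0.28 and -0.32) and Psmd7 (-0.30, -0.06 and -0.08) did not pass. Several of these calls rested on single mice: against NA1a those of Psmc1, Psmc2 and Psmd8 were lost without mouse 2, of Psmc2 also without mouse 5, and of Psmd6 without mouse 1. Against NA1b Psmc2 was lost without mouse 2, mouse 4 or mouse 5, Psmd13 without mouse 1 and Psmd12 without mouse 3, and against NA1c Psmc2 without mouse 2 or mouse 3 and Psmd12 without mouse 3, mouse 4 or mouse 5.

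Psmd3, a lid scaffold, was the only core or 19S subunit called lower in NA2, and not at equal depth. It was 0.755, 1.39, 0.940, 0.763 and 0.545 in NA2 and 1.41, 1.56, 2.36, 1.44 and 1.13 in NA1c, lower in each mouse although the ranges overlapped. The difference was -0.80 against NA1c (adjusted p = 0.00704) and -0.60 against NA1b (adjusted p = 0.0429). Both calls were lost when profiles were centred on the median gene and in neurons above and in neurons below 4000 UMIs, and the call against NA1b also without mouse 1, mouse 4 or mouse 5. Thinned to 2000 UMIs, the differences were -0.17 and -0.04 and not called, and a Psmd3 UMI was in 25.4% of NA2 neurons against 19.1%, 25.7% and 23.4% in NA1a, NA1b and NA1c.

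Psme4, which encodes the nuclear cap PA200, went the other way. It was 0 in mice 1 and 2, 0.0695, 0.296 and 0.234 in mice 3 to 5 of NA2 (0.120 ± 0.137), against 1.08, 1.40, 0.706, 1.17 and 1.13 in NA1a. NA1b held 1.17 ± 0.267 and NA1c 1.04 ± 0.554, and no NA2 profile reached the lowest of the NA1 profiles (0.452). The difference was -2.65 (SE 0.344, adjusted p = 4.69e-08), -2.74 (1.67e-08) and -2.48 (1.07e-07), on a scale that depends on the pseudocount for a gene this low. NA3 was uneven, with 0.208 in mouse 2 and 1.02 and 1.28 in mice 4 and 5, and was not called against NA1a or NA1b. In NA2, 13 of 175 neurons held a Psme4 UMI (7.43%, 95% exact binomial interval 4.01 to 12.4%). In NA1c, where the median depth was similar, the share was 31.8% (25.9 to 38.1%). Thinned to 2000 UMIs, the shares were 4.06% in NA2 and 10.1%, 23.0% and 15.6% in NA1a, NA1b and NA1c.

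The caps of the PA28 family did not follow Psme4. Psme2, the PA28 beta subunit, was 1.90, 1.50, 1.64, 0.671 and 1.05 in NA2, with mouse 4 inside the range of NA1a (0.502 to 0.675). Its differences of +1.05, +1.53 and +1.70 were called, the first not without mouse 3 or in neurons of at least 4000 UMIs, and the second not when thinned. Psme1, the PA28 alpha subunit, was called against NA1b alone (+0.78) and not without mouse 2, mouse 3 or mouse 4. That call was kept in 8 of 16 alternatives and was also lost when thinned and in neurons of at least 4000 UMIs. Psme3, the nuclear PA28 gamma, did not pass (+0.47, +0.73 and +0.26). Of the 4 chaperones tested, Psmg4, which helps to build the alpha ring, was higher than in NA1b (+1.16) and NA1c (+1.40), and Psmd5, a chaperone of the base, than in NA1c (+0.95). The Psmg4 calls were lost in neurons above and in neurons below 4000 UMIs, and that against NA1b also when thinned. Psmd5 passed the filter only with the help of the NA2 and NA1b profiles. Its call was lost without a filter, when thinned, without shared barcodes and without mouse 4, and the difference was -0.11 in neurons of at least 4000 UMIs.

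Of the 2 immunoproteasome subunits tested, Psmb10 was higher in NA2 than in each NA1 subtype and Psmb8 than in NA1b and NA1c. None of these calls was kept in neurons of at least 4000 UMIs. Psmb10 was 1.48, 1.34, 2.09, 0.846 and 0.303 in NA2, with mouse 5 below the NA1a, NA1b and NA1c profiles of the same mouse (0.330, 0.408 and 0.513). The differences of +1.25, +0.83 and +0.77 were called, the second not without mouse 1, mouse 2 or mouse 3 and the third not without mouse 1, mouse 2, mouse 3 or mouse 4. Psmb8 differed by +0.39 from NA1a (adjusted p = 0.321), +1.33 from NA1b (0.000548) and +1.25 from NA1c (0.000974). Both Psmb8 calls and those of Psmb10 against NA1b and NA1c were lost when thinned and in neurons of at least 4000 UMIs, where the Psmb10 call against NA1a was lost too. Both settings also leave out neurons, so a part of depth cannot be told apart from that of fewer neurons. The Psmb10 call against NA1c was kept in 3 of 16 alternatives.

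The NA2 differences were read against the shared barcodes and the depth. Without the shared barcodes NA2 kept 4 mice, and the core sum was 48.1, 54.3, 44.8 and 38.4 in mice 1, 3, 4 and 5 (46.4 ± 6.62), still above every NA1 profile. The alpha sum was 19.2 ± 2.27, the beta sum 27.2 ± 5.50, the 19S sum 33.4 ± 3.96 and the ratio of core to 19S 1.39 ± 0.134. Psmb1 was then 4.93 ± 0.957, Psmb5 5.50 ± 1.15, Psmb6 5.26 ± 1.18, Psmb7 2.22 ± 0.275, Vcp 6.12 ± 1.92 and Psme4 0.201 ± 0.193. The members called were 19 higher and 2 lower against NA1a, 25 and 1 against NA1b and 19 and 2 against NA1c, of which 19, 25 and 21 had been called with all neurons. The share of all genes called is not given for this setting or for the depth cut below. The median log2 difference of the members was +0.61, +0.87 and +0.73, and that of all genes tested -0.21, -0.22 and -0.27. Vcp was then also called against NA1b (+0.76, adjusted p = 0.0146), and Psmd3 no longer was (-0.60, adjusted p = 0.0673). The other calls lost without them were those of Psma4, Psmc1, Psmc2 and Psmd8 against NA1a, of Psma3, Psmc2 and Psme1 against NA1b, and of Psma4, Psmb10, Psmc1, Psmc2, Psmd5 and Psmd14 against NA1c. In neurons of at least 4000 UMIs, 40 members were tested, and not all 5 mice could give an NA2 profile. There 18, 20 and 12 members were higher and 1 lower in each comparison. The median over the members was +0.65, +0.83 and +0.70, and that over all genes tested -0.12, -0.14 and -0.14. Across the 4 depth bins, which pool neurons of all mouse names, the core sum of NA2 was 54.4, 55.0, 53.2 and 47.6. That of the NA1 subtypes was 16.2 to 23.9. In the mouse names that matched no sample, the pooled core sum was 54.0 in NA2 and 21.2, 24.9 and 22.3 in NA1a, NA1b and NA1c, and Psme4 was 0.0677 in NA2 and 0.970, 1.02 and 1.05.

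Other measures moved with NA2. Malat1, a nuclear RNA, was 74.2 ± 24.0 UMIs per 10000 in NA2 and 872, 838 and 763 on average in NA1a, NA1b and NA1c. Mitochondrial transcripts took 7.27 ± 1.01% of UMIs in NA2 and 3.71%, 4.51% and 3.37% in the NA1 subtypes, and ribosomal protein transcripts 7.65 ± 0.892% and 4.58%, 2.96% and 3.03%. The neuron marker sum was 118 in NA2 and 99.3 to 104 in the others. The satellite glia sum was 5.52 ± 2.45, against 6.99, 10.5 and 13.5, and its marker Kcnj10 was at 0 in NA2. Without the shared barcodes Malat1 was 74.8 ± 40.9, and mitochondrial transcripts took 8.24 ± 1.52% and ribosomal protein transcripts 7.11 ± 0.875% of UMIs. The part of RNA quality in the proteasome differences was not tested, and a higher share of a neuron's UMIs cannot be told apart from less RNA of other genes.

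NA3 was the subtype with the most Psmb8, the immunoproteasome counterpart of Psmb5. Its level was 2.23, 1.89 and 1.78 in mice 2, 4 and 5 (1.97 ± 0.231). It was 1.33, 0.648, 0.753, 0.496 and 0.561 in NA1a (0.757 ± 0.332). NA1b held 0.334 ± 0.0969, NA1c 0.391 ± 0.200 and NA2 1.08 ± 0.591. The NA3 profiles lay above all of NA1a, NA1b and NA1c, and only NA2 of mouse 1 (2.00) fell among them. The difference was +1.64 from NA1a (SE 0.380, adjusted p = 0.00149) and +2.58 from NA1b (adjusted p = 1.52e-06), and both calls held without any 1 mouse. A Psmb8 UMI was seen in 60.6% of NA3 neurons (50.3 to 70.3%) and in 37.7% of NA1a neurons (32.3 to 43.3%), which had a similar depth. Thinned to 2000 UMIs the shares were 30.8% and 14.3%, and the level then was not called against NA1a (+1.86, adjusted p = 0.0801). It was also not called against NA1b in neurons under 4000 UMIs (+1.46, adjusted p = 0.663). The 7 NA3 neurons of unmatched mouse names held 1.16, against 0.748 in NA1a, 0.574 in NA1b and 1.99 in NA1c.

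Of the other inducible subunits, Psmb10 was called higher in NA3 than in NA1a alone, and Psmb9 was too low to be tested. Psmb10, the counterpart of Psmb7, was 0.950, 0.753 and 0.742 in NA3 (0.815 ± 0.117) and 0.390 ± 0.120 in NA1a, without overlap. Its difference of +1.14 (adjusted p = 0.0354) was lost without mouse 2, mouse 3, mouse 4 or mouse 5, and against NA1b it was +0.72 and not called. The mean of NA2 (1.21 ± 0.675) was above that of NA3. Psmb9, the counterpart of Psmb6, was 0.458, 0.112 and 0.447 in NA3 and at most 0.0617 in NA1a and 0.112 in NA1b. NA1c of mouse 4 held 0.492, above all NA3 profiles, and NA2 of mouse 2 held 0.378. A Psmb9 UMI was found in 27 of 99 NA3 neurons (27.3%, 18.8 to 37.1%) and in 5.70% of NA1a neurons (3.41 to 8.85%). Thinned, the shares were 4.83% in NA3 and 0% to 2.86% in NA1a, NA1b, NA1c and NA2.

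**Figure D4:**
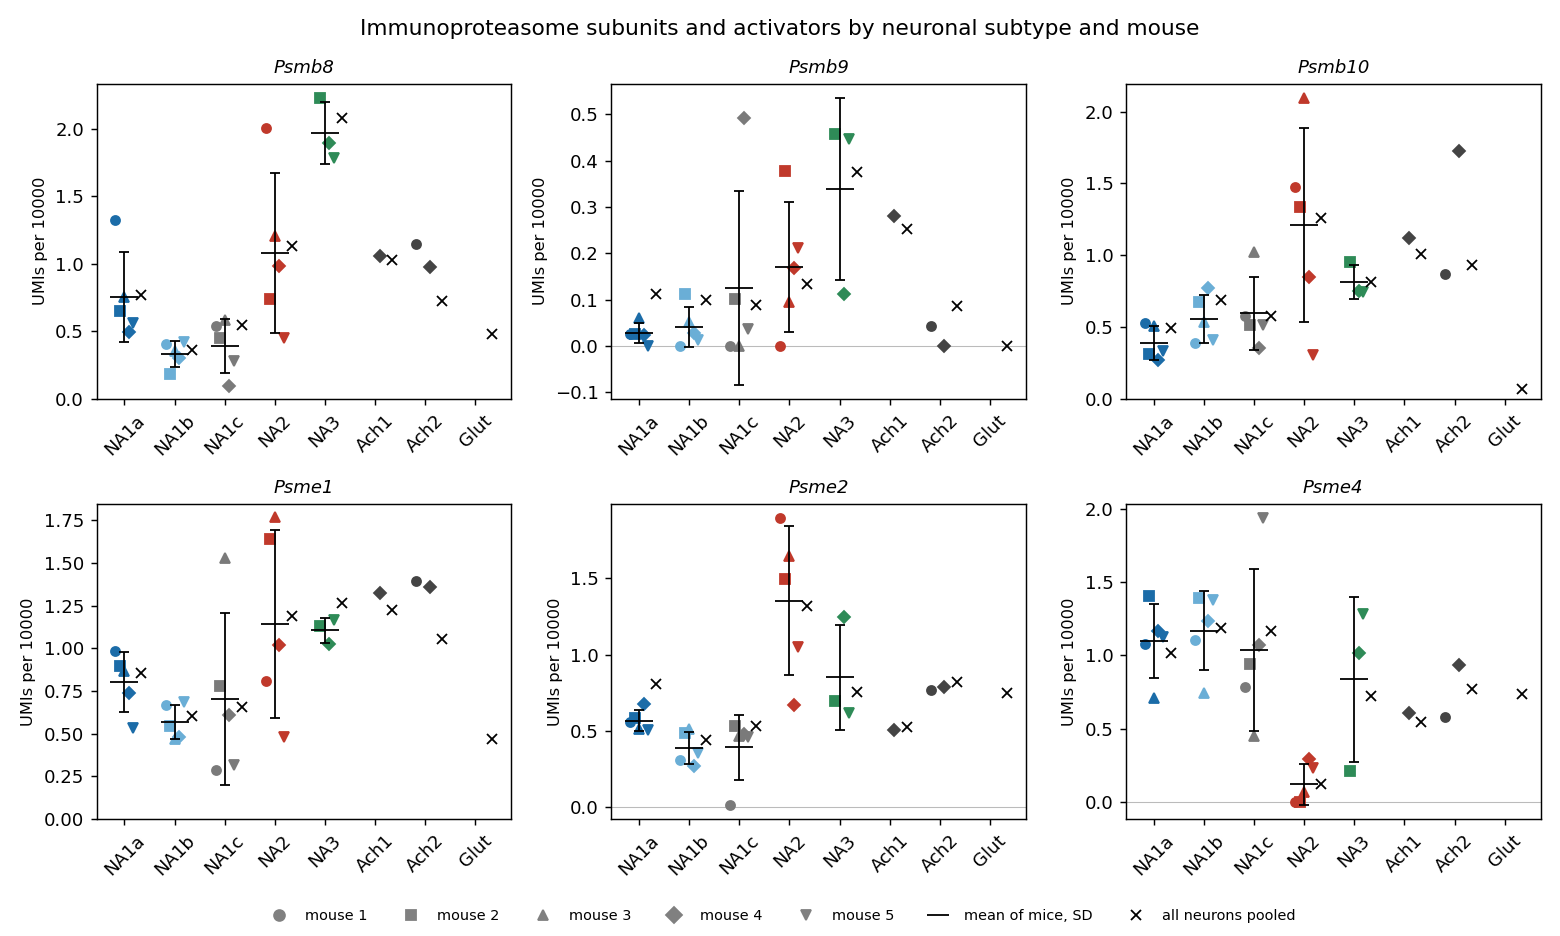
UMIs per 10000 (y axes) of the inducible subunits Psmb8, Psmb9 and Psmb10 and the activators Psme1, Psme2 and Psme4 by subtype (x axes). Coloured markers are mice, black bars the mean ± SD of at least 3 mice and crosses all neurons pooled. Psmb8 is 1.78 to 2.23 in the 3 NA3 profiles, and Psme4 is at most 0.296 in NA2.

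In all, 4 members were higher and 1 lower in NA3 than in NA1a, where 7.29% of all genes tested were higher and 11.8% lower. Besides Psmb8, Psmb10 and Vcp these were Psmb7, higher by +0.87 (adjusted p = 0.0423, lost without any 1 of the 5 mice), and Psmd12, lower. Psmd12 was 0.990, 0.632 and 1.44 in NA3 and 2.22 ± 0.285 in NA1a, without overlap. The call of this difference of -1.09 (SE 0.284, adjusted p = 0.00495) was lost without mouse 4 (-0.69), when thinned and in neurons of at least 4000 UMIs. Against NA1b, 4 were higher and 0 lower (all genes 9.02% and 13.6%). They were Psmb8, Psmb1 (+0.95, adjusted p = 0.0142, higher in 2 of 3 mice, lost without mouse 2 or mouse 4), Psma2 (+0.93, adjusted p = 0.0213, lost without mouse 2 or mouse 5) and Psmb2 (+0.77, adjusted p = 0.0369, lost without any 1 of the 5 mice). Of these 4, Psmb8 alone kept its call when thinned. The core sum of NA3 was 30.0, 23.1 and 20.6, of which mouse 2 lay above all NA1a profiles.

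Glial, fibroblast and immune cell markers, mitochondrial transcripts and interferon-related transcripts moved with these differences, and the endothelial marker tested did not. All 9 satellite glia markers tested were higher in NA3 than in NA1a, by +3.29 (Sox10) to +5.43 (Gpm6b), and all 6 neuron markers were lower. The 3 fibroblast markers tested were higher too (Dcn +4.14, Col3a1 +3.19 and Col1a2 +2.77), with a fibroblast sum of 11.7 to 31.3 in NA3 and 0.712 to 1.29 in NA1a. The 1 immune cell marker tested, Lyz2, was higher by +1.50, and the immune sum was 0.484 to 4.51 in NA3 and 0.0912 to 0.832 in NA1a. The 1 endothelial marker tested, Egfl7, was lower in NA3 than in NA1a (-1.42). Mitochondrial transcripts took 7.61 ± 3.23% of UMIs in NA3 and 3.71 ± 1.68% in NA1a. The list of interferon and MHC class I genes summed to 26.4 ± 6.27 in NA3 and 12.7, 7.98 and 9.18 on average in NA1a, NA1b and NA1c. Of its 9 tested genes, 6 were higher than in NA1a (among them B2m +1.28, H2-D1 +0.97, H2-K1 +0.86, Tap2 +1.51 and Ifngr1 +1.42) and 5 higher than in NA1b. Of all genes tested, 7.29% were higher and 11.8% lower in NA3 than in NA1a, and 9.02% higher than in NA1b. The part of RNA of these cells, or of RNA quality, in the Psmb8 difference was not tested.

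Ach1, Ach2 and Glut reached 10 neurons in 2 mice at most and were not entered in the tests. Ach1 was nearly 1 mouse, with 55 of its 62 matched neurons from mouse 4, where the core summed to 34.6. It also held glial (117) and fibroblast (38.7) transcripts and less Malat1 (185). Psmf1, the inhibitor that binds the end of the core, was 0.892 in Ach1 pooled and 0.156 to 0.386 in the other subtypes. Ach2 had a core sum of 37.8 in mouse 1 and 30.1 in mouse 4, and without shared barcodes its mean over those mice was 22.2 ± 6.14 in place of 34.0 ± 5.41 (n = 2). Glut, pooled, was the subtype with the most Psmd2 (2.73) and little Psmb10 (0.0697), and its core sum of 20.4 was below its 19S sum of 27.9, a ratio of 0.730. The core to 19S ratio was 1.28 in Ach1 and 1.27 ± 0.122 in Ach2 (n = 2), and without shared barcodes 0.912 ± 0.125 in Ach2.

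Members at the edge of detection were few. Psma8, the alpha subunit of the testis, had 0 UMIs in 1303 neurons. Psmb11, the thymus subunit, had a UMI in 7 neurons, all in NA1a, NA1b and NA1c, and in 0 of 175 NA2 neurons, which at their median of 2461 UMIs allows a share with a UMI of up to 1.71% (3 counts of the total). Psmc3ip, a meiotic recombination factor, was seen in 16 neurons, at 0.165, 0.204 and 0.146 in the NA3 mice and 0.138 in NA3 pooled. Counting intervals cover counting error only.

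Genes around the proteasome that the symbol rule leaves out were followed in lists. Of 12 proteasome-associated genes tested, 4 were higher in NA2 than in each NA1 subtype: Pomp, which matures the core (+1.26, +1.48 and +1.66), Sem1, a small lid subunit (+0.80, +1.65 and +1.65), Akirin2, which brings proteasomes into the nucleus (+1.29, +1.40 and +2.02), and Txnl1 (+0.95, +1.70 and +1.51). The large ubiquitin ligase Ubr4 (-1.08, -1.93 and -2.10) and AI314180, the scaffold Ecm29 (-1.33, -1.74 and -1.72), were lower in each, Ube3a than in NA1a and NA1b, and Ube3c than in NA1b and NA1c. In all, 4 were higher in each comparison and 3, 4 and 3 lower. Of all genes tested, 16.6%, 21.5% and 23.4% were higher and 32%, 34.8% and 36.5% lower. Between the NA1 subtypes, Sem1 was higher in NA1a than in NA1b (+0.85) and NA1c (+0.85), Ube3a higher than in NA1c (+0.99) and Ubr4 lower than in NA1c (-1.02).

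Of 19 Vcp cofactors tested, 2, 3 and 5 were higher in NA2 than in NA1a, NA1b and NA1c and 4, 5 and 5 lower, where 16.6%, 21.5% and 23.4% of all genes tested were higher and 32%, 34.8% and 36.5% lower. The cofactors called in all 3 comparisons were Sel1l (-1.12, -1.24 and -1.18), Syvn1 (-1.31, -1.64 and -1.15), Ubxn4 (-1.06, -0.90 and -1.14) and Aspscr1 (-1.04, -1.35 and -1.27), which were lower, and Svip (+1.11, +0.98 and +0.97) and Ubxn6 (+0.63, +0.74 and +0.58), which were higher. Sel1l, Syvn1 and Derl1 act in the degradation of proteins from the endoplasmic reticulum, and Derl1 was higher in NA2 than in NA1c (+1.24). No cofactor was called between NA1a and NA1b, where Vcp differed, and Derl1 was higher in NA1a than in NA1c (+1.22). Of 13 ubiquitin genes and shuttles, 5, 3 and 6 were higher in NA2 and 0, 1 and 1 lower. They included the ubiquitin precursors Rps27a (+1.65, +2.24 and +2.27) and Ubb (+0.77, +1.22 and +1.57) and the deubiquitinase Uchl1 (+0.83, +0.65 and +0.87). Only 4 of 13 regulators of proteasome transcription were high enough to test, of which 0 were higher and 2, 3 and 3 lower in NA2, Mafg (-1.64, -2.11 and -2.17) and Stat3 (-1.69, -1.13 and -1.56) in each comparison. Of the 9 interferon and MHC class I genes, 0, 1 and 2 were higher and 2, 0 and 2 lower in NA2, with H2-K1 at -1.32 against NA1a and -0.86 against NA1c. In NA3 against NA1a and NA1b, 0 and 0 of the proteasome-associated genes were higher and 0 and 1 lower, with AI314180 at -1.06 against NA1b. Of all genes tested, 7.29% and 9.02% were higher there and 11.8% and 13.6% lower.

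Across the 23 profiles of 5 mice, which share animals and libraries, the alpha and beta sums moved together (r = 0.97, and 0.86 over the 18 profiles without NA2). The core and 19S sums had r = 0.90 with NA2 and 0.13 without it. Vcp and the core sum had r = 0.23, and -0.38 without NA2, and Psme4 and the core sum r = -0.82, and -0.67 without NA2.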

How the data were processed

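Gene expression was measured by 10x Genomics droplet RNA sequencing of dissociated stellate ganglia from 8 mice. The authors deposited natural log values, ln(1 + UMIs per 10000), with a table that gives each neuron its mouse and subtype. They aligned with Cell Ranger 2.1.1 to mm10 with the GFP sequence added, used Scanpy and Seurat, and kept cells with 500 to 6000 genes, under 20000 UMIs and under 15% mitochondrial UMIs, which all 1303 neurons passed. How doublets were treated was not stated in the sources used here, and no caller was run. Inverting the deposited values gave whole UMIs for 100% of nonzero values (tolerance 0.01), while 88.0% of values were 0. Members and lists were chosen with earlier results of these data known.

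UMIs per 10000 were averaged per mouse and subtype (at least 10 neurons, 23 profiles of NA1a, NA1b, NA1c, NA2 and NA3). log2(mean + 0.1) was fitted with limma 3.58.1 (R 4.3.3), with subtype and mouse as terms and an intensity trend, for the 6185 genes that reached a mean of 0.5 in 3 or more profiles, and p-values were adjusted by Benjamini-Hochberg over all of them (threshold 0.05). The profiles of a mouse share its library by design, so the mouse term pairs them. The fit was tested on simulated data. Other steps used Python 3.11.15, NumPy 2.4.6, pandas 2.3.3, SciPy 1.17.1 and matplotlib 3.10.9. Gene positions are those of GENCODE on GRCm38. Named members were catalytic, inducible, activator, inhibitor, ubiquitin receptor and testis subunits, Psmd14 and Vcp, the 3 with the smallest p and every one called in each comparison, and the highest and lowest of each class. Other genes named were called ones of a list. Alternatives changed the pseudocount (1), the filter, the mouse term, the minimum of neurons (5), the depth (thinned to 2000 UMIs), the averaging, the centring and each mouse. Leaving out shared barcodes and splitting neurons at 4000 UMIs were chosen after seeing the data.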

Additional observations from a re-analysis of the deposited data

Results flagged for a closer look

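Of 68 groups of 5 mice examined, 4 had 1 mouse far from the other 4 (Dixon's 95% criterion, which chance meets in about 1 of 20 groups). In NA1c, mouse 3 had an immunoproteasome and thymoproteasome beta sum of 1.61 UMIs per 10000 (next highest 1.12), mouse 1 an activator and inhibitor sum of 2.04 (next lowest 3.05), and mouse 4 a Psmb9 level of 0.492 (next highest 0.101). In NA1a, mouse 5 had a 20S core sum of 16.3 (next lowest 21.3).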

How the results depend on the processing

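Of 1406 alternative values for the 90 called differences, 1204 kept direction and call, 198 were no longer called and 4 turned: Psmd5 (-0.11) and Psmc2 (-0.14) in NA2 against NA1c with neurons of at least 4000 UMIs, Psmb7 in NA3 against NA1a when thinned (-0.15), and Psmb1 in NA3 against NA1b with neurons under 4000 UMIs (-0.52); the cause was not tested. Without the mouse term, which removes the pairing by animal (replicate block), the members called were 1, 1 and 0 between the NA1 subtypes, 23, 28 and 26 for NA2 against NA1a, NA1b and NA1c, 28 in the F test, and 3 and 3 for NA3 against NA1a and NA1b, where the main counts were 5 and 4. NA1a against NA1b (1 called) gave 2 with a pseudocount of 1, 0 without a filter, 4 on the mean of natural log values, 2 when centred, 0 from 4000 UMIs and 0 to 2 with 1 mouse left out. NA1a against NA1c (1 called) gave 9 on the mean of natural log values, 0 from 4000 UMIs and 1 to 1 with a mouse left out. Thinning to 2000 UMIs, which keeps 813 of the 1002 matched neurons, gave 16 in the F test (28) and 15 for NA2 against NA1b (29), and NA2 against NA1c (27) gave 13 from 4000 UMIs. With a mouse left out the ranges were 25 to 27 for the F test, and 21 to 23, 26 to 27 and 24 to 26 for NA2 against NA1a, NA1b and NA1c. NA3 against NA1a (5) gave 2 when thinned and 1 to 3 with a mouse left out. NA3 against NA1b (4) gave 10 with 5 neurons per profile, 8 when centred, 9 on the mean of natural log values, 7 with summed UMIs, 2 when thinned, 0 under 4000 UMIs and 1 to 4 with a mouse left out. Between NA1b and NA1c no setting called a member. Depth limits the 9 members not tested, which had a UMI in 0 to 157 of 1303 neurons.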
